A study of Mus musculus with 24 samples.

Results

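The genes described here are 8 parts of the extracellular arm of Nodal signalling: the ligands Nodal and Gdf3, the co-receptor Tdgf1 (Cripto), the secreted antagonists Lefty1, Lefty2 and Cer1, and the convertases Furin and Pcsk6 (Pace4). They were chosen by gene symbol for their known roles, and 7 of the 8 have a row in each of the tables, out of 19780 genes for control and 19979 for paused cells. Cer1 has no row in either table, and its expression was not analysed here. The libraries were made from poly(A) RNA of E14 cells, a mouse embryonic stem cell line, on gelatin in serum with LIF. Cells were wild type or came from either of 2 Smad2 knockout lines (Smad2_KO1 and Smad2_KO2), and were kept for 12 h in that medium alone (control) or with 200 nM INK128, which blocks the kinase mTOR and puts such cells into a paused, diapause-like state. Each of the 6 combinations has 4 libraries, 24 in all. How the knockout lines were made and whether each is a single clone is not given in the sources used here, and no label says that replicates were separate cultures.

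Nodal is a secreted ligand of the TGF-beta family. It is made as a precursor that the proprotein convertases Furin and Pcsk6 can cleave, and it signals through activin receptors together with the co-receptor Tdgf1, after which Smad2 and Smad3 enter the nucleus with Smad4 and bind DNA with partners such as Foxh1. Among the classic targets are Nodal itself, in a positive feedback loop, and the Lefty genes. The Lefty products block Nodal and its co-receptor outside the cell and so close a negative feedback loop. Gdf3 is a related ligand that is abundant in pluripotent cells, and Cer1 is a further secreted inhibitor.

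Promoter sequences are shown for the ligand and co-receptor, which were lower in paused knockout cells, and for Pcsk6, which was higher in both conditions. They are from RefSeq on GRCm38.p6, the build that the submitters name as mm10, and run from 250 bases before to 50 after the annotated start, 5′ to 3′ on the gene's strand. In the set of promoter windows used here, entries matched for 5 of the 8 genes and none for Lefty1, Lefty2 and Gdf3. The windows are chr10:61417722-61418021 on the plus strand for Nodal, chr9:110946109-110946408 on the minus strand for Tdgf1 and chr7:65861886-65862185 on the plus strand for Pcsk6. The Pcsk6 window lies wholly inside the gene as placed by another annotation, GENCODE M21, where it begins at 65861734. Capitals mark matches on either strand to the Smad box, CAGAC or its reverse complement GTCTG, or to the Foxh1 motif, TGTNNATT or its reverse complement AATNNACA; no match overlaps another here.
Nodal: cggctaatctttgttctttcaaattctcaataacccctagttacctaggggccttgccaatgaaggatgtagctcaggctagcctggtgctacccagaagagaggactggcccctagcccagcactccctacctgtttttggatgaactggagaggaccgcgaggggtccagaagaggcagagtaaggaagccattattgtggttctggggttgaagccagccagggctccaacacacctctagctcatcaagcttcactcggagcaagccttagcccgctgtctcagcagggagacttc
Tdgf1: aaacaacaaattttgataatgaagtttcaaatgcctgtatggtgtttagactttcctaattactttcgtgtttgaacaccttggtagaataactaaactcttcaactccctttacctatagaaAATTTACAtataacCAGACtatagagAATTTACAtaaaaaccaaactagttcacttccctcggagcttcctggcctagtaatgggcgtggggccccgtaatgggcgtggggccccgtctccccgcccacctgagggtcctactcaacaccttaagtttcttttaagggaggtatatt
Pcsk6: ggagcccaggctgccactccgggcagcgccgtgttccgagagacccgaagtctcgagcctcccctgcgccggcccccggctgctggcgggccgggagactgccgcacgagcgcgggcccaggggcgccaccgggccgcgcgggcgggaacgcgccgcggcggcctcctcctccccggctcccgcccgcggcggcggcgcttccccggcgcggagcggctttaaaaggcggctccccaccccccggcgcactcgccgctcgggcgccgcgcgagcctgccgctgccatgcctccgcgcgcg

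The Tdgf1 window holds 2 Foxh1 matches, whose first bases lie 127 and 101 bases before the start, and 1 Smad box between them, at 113 bases. Among all 32851 promoter windows of the same length, 49.6% hold a Smad box, 12.2% a Foxh1 match and 0.61% a Smad box with at least 2 Foxh1 matches. This last combination is the one that the Tdgf1 window holds, so its share is a description and no test of that window. The windows of Nodal and Pcsk6 hold neither set of letters. That of Cer1 holds 1 Smad box and no Foxh1 match, and the windows at the annotated starts of Furin hold 1 and 2 Smad boxes and no Foxh1 match. The Pcsk6 window is 81.7% G and C and the Tdgf1 window 41.7%, against a median of 52.7% over all windows. These matches are descriptions of letters and no binding was measured.

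The deposited values are a mean normalized count per gene over libraries, the log2 fold change, its standard error (SE) and an adjusted p, once for control and once for paused cells. They hold no value of a single library, so neither the levels per sample nor the overlap of the groups can be shown, and the depth of each library is unknown. Which of the knockout lines entered each table is not given in the sources used here, so the lines cannot be told apart. A gene is called changed here where its adjusted p (Benjamini-Hochberg, over all genes of the table) is under 0.05. The tables do not name the numerator, and changes are read as knockout over wild type because Smad2 was lower in both: its mRNA was at 78.6% of wild type without INK128 and at 64.6% with it, per the authors' deposited tables. Calls were common, with 41.4% of 19778 tested genes in control and 42.6% of 19979 in paused cells, so a call alone says little and the size of each change is given beside it. As a check of the cell type, all 8 stem cell markers on the list (such as Pou5f1, Sox2 and Nanog) were present, with means of 8797 to 51710 in control and 11866 to 44100 in paused cells, per the authors' deposited tables.

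In Smad2 knockout cells both Lefty genes were among the 10 largest falls of abundant transcripts, Pcsk6 was at 158% to 175% of wild type, and the ligands, the co-receptor and Furin lay between 86.5% and 104% in the authors' deposited tables. In control cells 3 of the 7 genes were called: Lefty1 and Lefty2 lower, where 21.9% of all genes were, and Pcsk6 higher, where 19.5% were. In paused cells 5 of 7 were called, namely Lefty1, Lefty2, Nodal and Tdgf1 lower, against 22.0% of all genes, and Pcsk6 higher, against 20.5%. Changes of at least 2-fold downward were limited to the 2 Lefty genes. Of all genes, 2.52% in control and 2.21% in paused cells were called lower with a fall of that size. The median change of the 7 genes in the authors' deposited tables was -0.12 in control and -0.14 in paused cells, beside 0.0008 and -0.0016 over all genes. The calls of Nodal and Tdgf1 in paused cells were lost in a test for changes beyond 1.2-fold (adjusted p 1 for both), which left 3 of the 5.

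**Figure D1:**
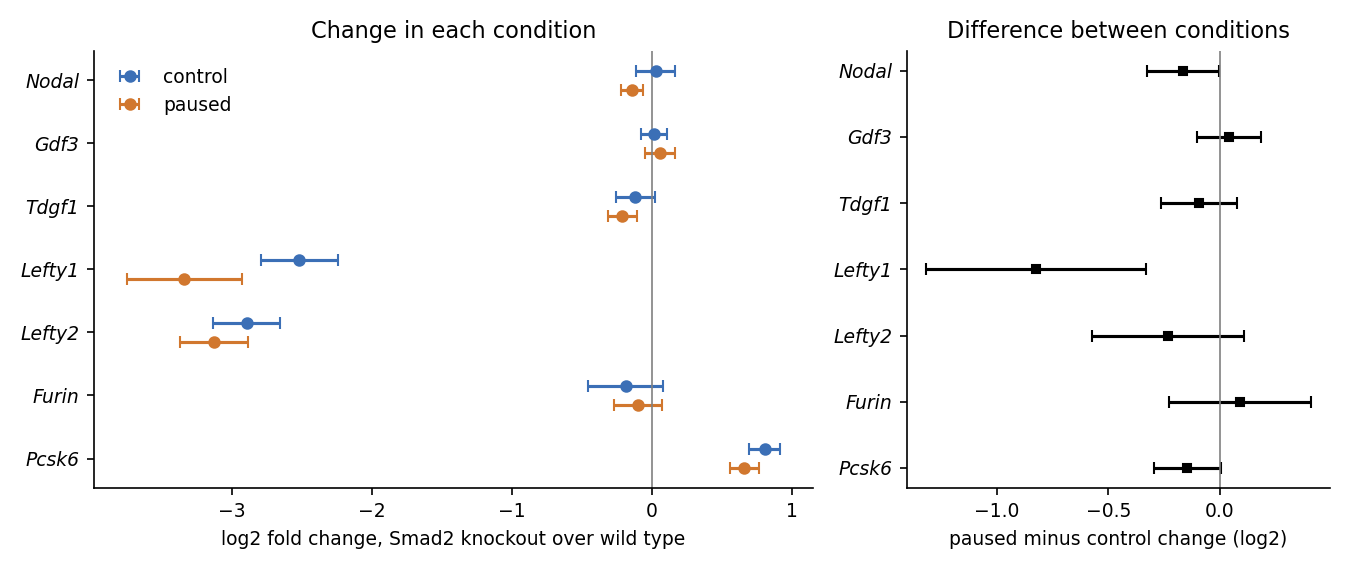
Left, log2 fold change of knockout over wild type (horizontal axis) for each gene in control (blue) and paused (orange) cells; right, the paused change minus the control change. Points are the deposited estimates or their difference, bars are 95% intervals; Lefty1 and Lefty2 lie between -2.5 and -3.3, Pcsk6 at 0.81 and 0.66, and the others within 0.21 of 0.

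Nodal, the ligand, had a log2 change of 0.03 without INK128 (the authors' deposited table; SE 0.07, adjusted p 0.78, mean level 4729 normalized counts). The 95% interval ran from 92.6% to 112% of wild type. With pausing, Nodal mRNA in knockout cells fell by 0.14 (the authors' deposited table; SE 0.04, adjusted p 0.00226, mean level 3360 normalized counts), to 90.9% of wild type with an interval from 86.1% to 96.0%. The transcript of the ligand thus lay close to its wild-type level in both conditions, with a fall of under 10% called in pausing. The difference between the conditions was -0.17 (SE 0.08, p 0.0427), which did not pass over all genes (adjusted p 0.363).

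Gdf3, the related ligand, was not called in either condition. The authors' deposited table for untreated cells gives a log2 change of 0.02 (SE 0.05, adjusted p 0.786, mean level 4431 normalized counts), and that for INK128 gives 0.06 (SE 0.06, adjusted p 0.41, mean level 4182). Gdf3 is at chr6:122605403-122610087 on the minus strand (GRCm38, GENCODE M21). The 95% intervals ran from -0.07 to 0.11 and from -0.05 to 0.17, which does not show that the level was the same.

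Tdgf1 codes for the co-receptor through which Nodal and Gdf3 engage the activin receptor complex. It was at 92.3% of wild type in control cells, where the authors' deposited table gives a log2 change of -0.12 (SE 0.07, adjusted p 0.18, mean level 21776 normalized counts). With pausing Tdgf1 fell by 0.21 (the authors' deposited table; SE 0.05, adjusted p 0.000386, mean level 16045 normalized counts), to 86.5% of wild type with an interval from 80.5% to 93.0%. The difference of Tdgf1 between the conditions did not pass over all genes (-0.09, SE 0.09, adjusted p 0.73). Tdgf1 is at chr9:110939603-110946158 on the minus strand. Of the 31-base words of its longest transcript, 17.4% also occur in Tdgf1-ps1, a pseudogene, so reads could be shared where the counting allowed it.

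Lefty1 and Lefty2 code for the secreted antagonists that target Nodal. Without INK128, Lefty2 fell by 2.89 on the log2 scale (the authors' deposited table; SE 0.12, adjusted p 1.11e-120, mean level 617.8 normalized counts), to 13.5% of wild type with an interval from 11.4% to 15.9%. With it, Lefty2 fell by 3.13 (the authors' deposited table; SE 0.12, adjusted p 1.46e-137, mean level 620.4 normalized counts), to 11.5%. By the size of the deposited statistic, Lefty2 ranked 4 of 19778 genes in control and 3 of 19979 in paused cells. It was thus among the largest changes relative to the deposited SE in either condition. How far that SE covers differences between knockout lines is not known.

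Lefty1 fell by 2.52 without INK128 (the authors' deposited table; SE 0.14, adjusted p 1.99e-69, mean level 655.9 normalized counts), to 17.5% of wild type with an interval from 14.5% to 21.1%. With INK128 it fell by 3.34 (the authors' deposited table; SE 0.21, adjusted p 2.17e-54, mean level 739.5 normalized counts), to 9.87% with an interval from 7.43% to 13.1%. Among genes with at least 5 ppm of the summed mean (10795 in control and 11006 in paused cells), Lefty1 had rank 10 by fall in control and rank 7 in paused cells, and Lefty2 rank 6 and rank 8. Its estimate in paused cells was less certain than most: the SE of Lefty1 exceeded that of 97.6% of the 1352 genes of like mean.

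The fall of Lefty1 was 0.82 deeper in paused than in control cells (SE 0.25, interval -1.32 to -0.33, p 0.00108), which did not pass over all 19132 genes (adjusted p 0.0637). With the minimum on abundance it passed (adjusted p 0.0428). It passed under none of the other alternatives, such as equal summed counts (adjusted p 0.0512) or the scaled statistic (adjusted p 0.465). For Lefty2 the same difference was -0.23 (SE 0.17, interval -0.57 to 0.11, adjusted p 0.63). Of all genes, 1.44% were called for this difference and none of the 7 was; at an unadjusted p under 0.05, Lefty1 and Nodal would be counted. The Lefty genes are close copies. Of the 31-base words of the longest Lefty1 transcript 25.03% occur in Lefty2, and 16.3% of those of Lefty2 occur in Lefty1, so part of each value may come from reads of the other if such reads were counted.

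Lefty1 and Cer1 are also made by endoderm of the early embryo, so endoderm markers are given beside them. Of 10 listed, 8 had a row and 7 of these were higher in both conditions, beside 19.5% of all genes in control and 20.5% in paused cells, with median log2 changes of 1.27 without and 1.28 with INK128. Their means summed to 1371 and 2128 normalized counts, against 225419 and 196573 for the stem cell markers. Afp and Ttr, which define visceral endoderm, had no row in either table. Some markers of other cell types fell, as the Lefty genes did and as 21.9% of all genes did in control and 22.0% in paused cells. Of 6 primitive streak and mesoderm markers 5 had a row, of which 3 were lower and 1 higher in control cells and 2 lower in paused cells; T and Mixl1 were the markers lower in both. Their means summed to 744.6 and 652.3 normalized counts, and Mesp1 had no row. Of 6 fibroblast markers 4 were lower in control cells, and of 5 with a row 3 were lower in paused cells, at summed means of 817.8 and 796.6. The part of these cell types in the results was not tested. In bulk RNA, fewer cells that express a gene and less of its RNA per cell cannot be told apart.

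Furin and Pcsk6 code for convertases that cut precursors at basic sites. Furin was not called: its log2 change was -0.19 without INK128 (the authors' deposited table; SE 0.14, adjusted p 0.281, mean level 989.3 normalized counts) and -0.10 with it (SE 0.09, adjusted p 0.391, mean level 1680). Its intervals were wide, from 73.0% to 106% of wild type in control and from 83.0% to 105% in paused cells, and in control cells its SE exceeded that of 96.1% of the genes of like mean. Changes of Furin within these bounds could not be told apart from none.

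Pcsk6 was higher in both conditions, the opposite direction to the Lefty genes. Its mRNA rose by 0.81 without INK128 (the authors' deposited table; SE 0.06, adjusted p 1.07e-43, mean level 3068 normalized counts), to 175% of wild type with an interval from 162% to 189%. With INK128 it rose by 0.66 (the authors' deposited table; SE 0.05, adjusted p 1.57e-35, mean level 1610 normalized counts), to 158% with an interval from 148% to 170%. The difference between the conditions was -0.14 (SE 0.08, adjusted p 0.413). Pcsk6 is at chr7:65861734-66050386 on the plus strand and Furin at chr7:80388585-80405436 on the minus strand. The exons of Pcsk6 overlap those of Gm45213, an annotated gene on the same strand, by 156 bases, and those of Furin overlap the antisense gene Gm44851 by 118 bases; neither of the overlapping genes is in the tables.

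**Figure D2:**
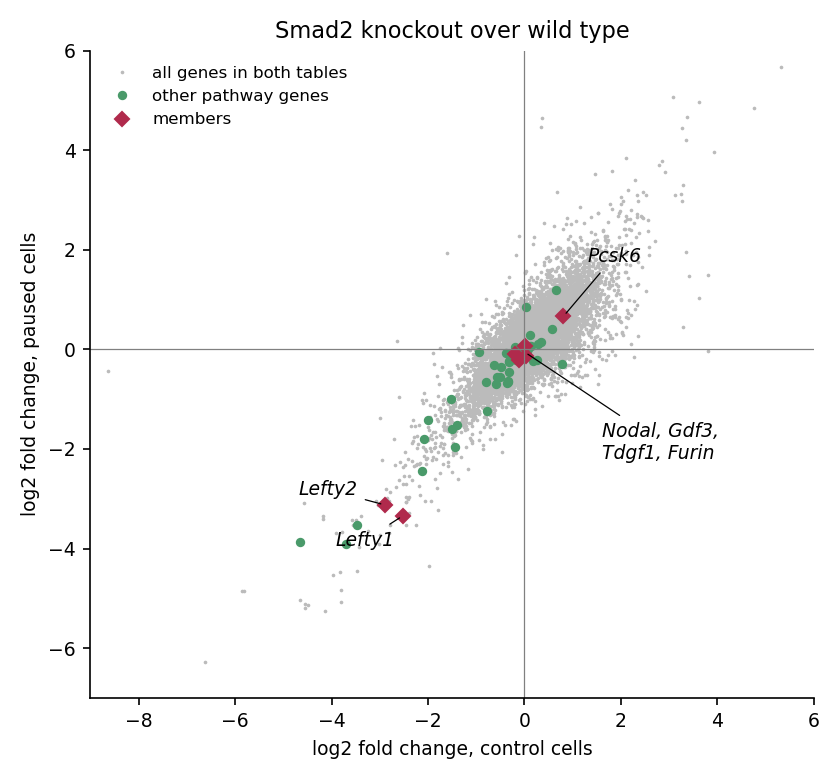
Log2 fold change of knockout over wild type in control cells (horizontal axis) against paused cells (vertical axis), with each gene in both tables in grey, the other pathway genes in green and the 7 genes as red diamonds. Lefty1 and Lefty2 lie far to the lower left, Pcsk6 lies above 0 on both axes, and Nodal, Gdf3, Tdgf1 and Furin lie near the origin.

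Levels can be compared between genes only per length. The means pool wild-type and knockout libraries, so the order depends on the changes given above as well. With the mean normalized count divided by the merged exon length in kb, the order in control cells of the authors' deposited table was Tdgf1 (8305 per kb), Nodal (2258), Gdf3 (1829), Pcsk6 (591.2), Lefty1 (373.1), Lefty2 (236.6) and Furin (107.8). The co-receptor was thus the most abundant, at 3.68 times Nodal per kb. In paused cells of the authors' deposited table the order was Tdgf1 (6119 per kb), Gdf3 (1726), Nodal (1604), Lefty1 (420.7), Pcsk6 (310.2), Lefty2 (237.6) and Furin (183.1). With the longest transcript as the length, Furin (292.9 per kb) moved above Lefty2 (250.9) in paused cells. The spread of a mean over libraries is not known, so no neighbours in this order were tested.

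**Figure D3:**
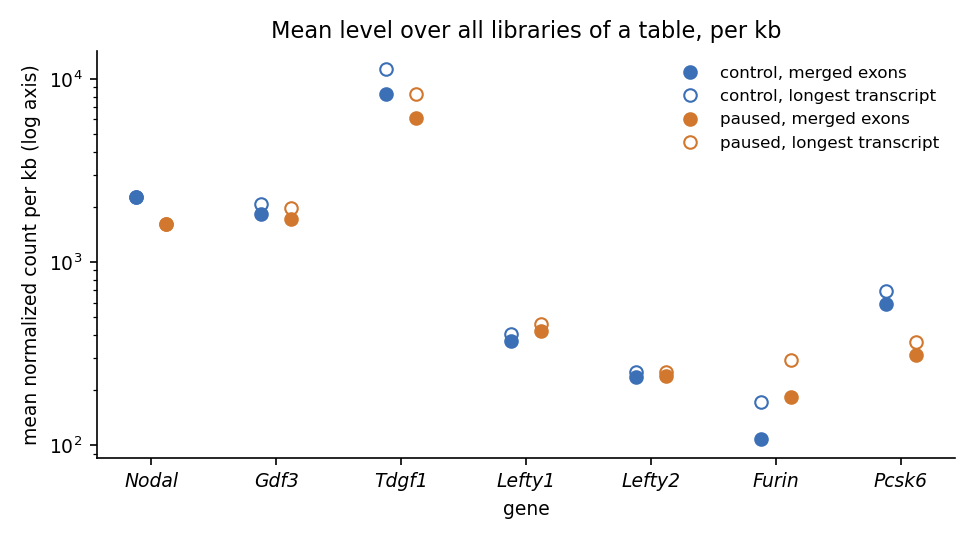
Mean normalized count per kb (vertical log axis) of each gene in control (blue) and paused (orange) cells, over wild-type and knockout libraries together, by merged exon length (filled) or longest transcript (open). Tdgf1 is highest in both tables, Nodal and Gdf3 lie between 1604 and 2258 per kb, and Furin and Lefty2 are lowest by merged exons.

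The means also differed between the tables, which were normalized separately and have no test of this difference. The paused mean was 0.525 times the control mean for Pcsk6, 0.71 times for Nodal, 0.737 times for Tdgf1, 0.944 times for Gdf3, 1.00 times for Lefty2, 1.13 times for Lefty1 and 1.698 times for Furin. Over all genes in both tables the median ratio was 1.02, with quartiles of 0.775 and 1.36. The convertases therefore lay on opposite sides: 7.3% of all genes had a lower ratio than Pcsk6, and 87.1% a lower one than Furin. 

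The level in each genotype follows from the mean and the change if the number of libraries behind the mean is assumed. With 4 wild-type and 8 knockout libraries, Lefty1 in control cells comes to 1458 normalized counts in wild type and 254.8 in the knockout, and with 4 and 4 to 1117 and 195.1. Per kb, wild-type control cells then have Lefty1 at 829.4 or 635.2 and Pcsk6 at 394.1 or 429.9. This is the reverse of their order in the pooled means. Lefty2, at 559.4 or 417.1, lies above Pcsk6 under the first assumption and below it under the second. In paused wild-type cells Lefty2, at 579.9 or 426.4, lies above Pcsk6, at 223.3 or 240.1, unlike in the pooled means. Nodal and Gdf3 there have 1707.2 and 1679.2 with 8 knockout libraries, or 1680.2 and 1690.7 with 4. In knockout control cells Furin, at 103.1 or 100.8, lies above Lefty2, at 75.3 or 56.1. The summed level per kb of Lefty1 and Lefty2 then equals 62.4% of that of Nodal in wild-type control cells and 9.69% in the knockout, or 47.1% and 7.33% with 4 and 4 libraries. In paused cells the same sum is 95.7% of Nodal in wild type and 11.0% in the knockout, or 71.0% and 8.15%. Under either assumption the transcripts of the antagonists were lower relative to those of their ligand in the knockout, which follows from the changes given above and is no separate test. The wild-type ratios of control and paused cells rest on assumed library numbers and have no known spread, so they were not compared.

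Lefty1 and Lefty2 are neighbours on chromosome 1, and their surroundings were examined for that reason, after their values were known. On GRCm38 (GENCODE M21) Lefty2 is at chr1:180893108-180899103 and Lefty1 at chr1:180935022-180938400, both on the plus strand and 35.9 kb apart. Tmem63a, which codes for an ion channel, starts 3.9 kb after Lefty1 on the same strand and also fell. It fell by 1.74 without INK128 (the authors' deposited table; SE 0.15, adjusted p 1.52e-30) and by 1.95 with it (SE 0.17, adjusted p 3.67e-28), to 29.9% and 25.9% of wild type.

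The nearest tabled genes outward, Sde2, H3f3a and Ephx1, had changes of under 0.5 in size. In the authors' deposited tables for control and paused cells, Sde2, the next tabled gene before the pair, had changes of -0.03 and 0.09 and was not called. Ephx1, 37.8 kb after the pair, rose by 0.46 (SE 0.10, adjusted p 6.64e-05) and 0.32 (SE 0.09, adjusted p 0.00277). H3f3a had -0.11 in control cells, not called, and fell by 0.21 in paused cells (SE 0.04, adjusted p 1.23e-07). Farther out within 500 kb, Mixl1 (-1.51 in control and -1.602 in paused cells) and Cnih3 (-1.38 and -1.31, at means of 7.3 and 21.2 normalized counts) fell in both conditions. Stum rose by 1.68 in control cells (SE 0.37, adjusted p 3.57e-05, mean level 16.5) and had 0.18 in paused cells, not called. Cnih4 fell less, in both (-0.46 and -0.39, adjusted p 2.87e-15 and 1.97e-12). Cnih3, Cnih4 and Stum were named after their values were seen. In all, 8 of 14 genes within 500 kb of the pair were called lower and 3 higher in control cells, and 8 of 16 lower and 2 higher in paused cells, beside 21.9% and 22.0% of all genes called lower. Nodal is at chr10:61417972-61425338 on the plus strand; of the 14 tabled genes within 500 kb of it 3 were lower and 3 higher in control cells, and 2 lower and 4 higher in paused cells. The difference between these loci was not tested.

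**Figure D4:**
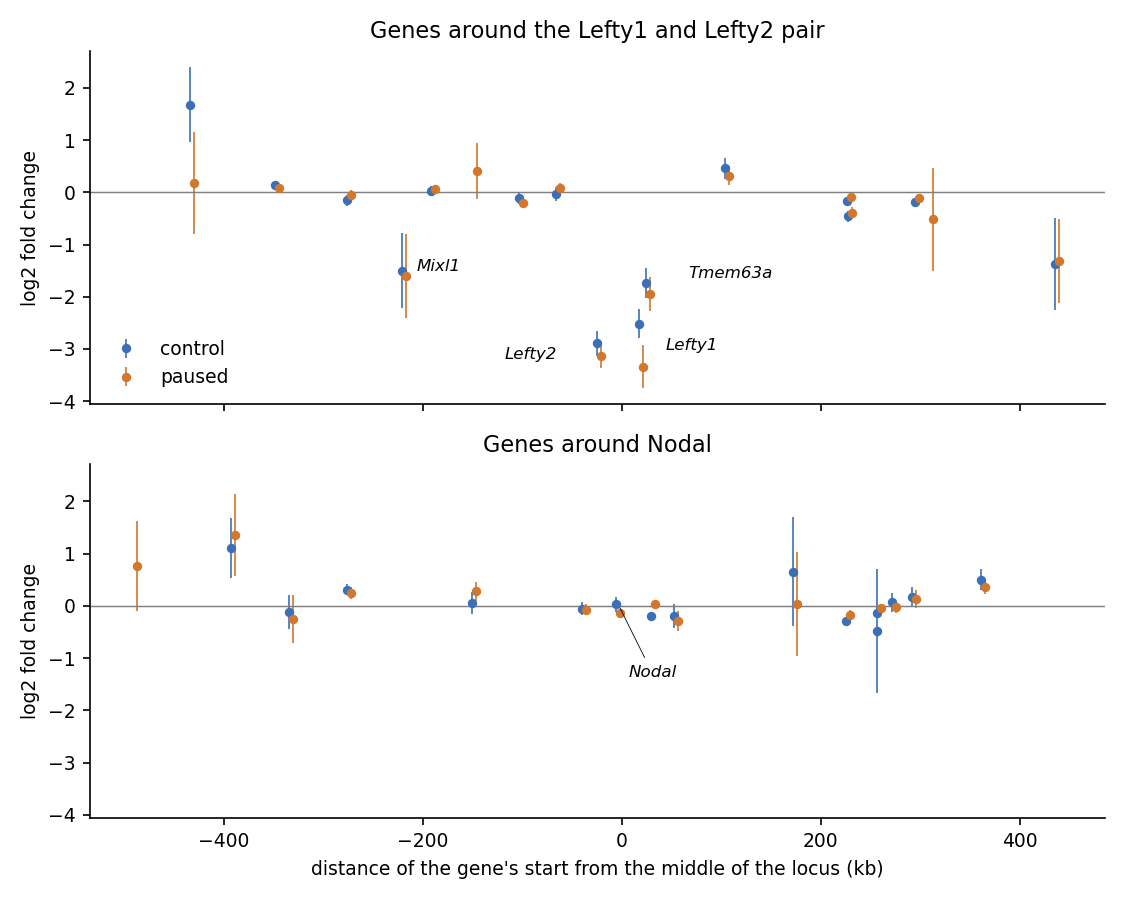
Log2 fold change of knockout over wild type (vertical axis) of the tabled genes within 500 kb of the Lefty pair (top) and of Nodal (bottom), apart from items not reported here, against the distance of its start from the middle of the locus in kb, in control (blue) and paused (orange) cells; bars are 95% intervals. Lefty2, Lefty1 and Tmem63a lie between -1.74 and -3.34, the nearest genes outward within 0.5 of 0, and Mixl1 and Cnih3 farther out below -1.3, while no gene near Nodal lies below -0.5.

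The other genes of the pathway were taken from a fixed list of 55, grouped by role. In control cells 53 had a row, and 31 of them (58.5%) were called, 25 lower and 6 higher, beside 41.4% of all genes. In paused cells 26 of 53 (49.1%) were called, 25 lower and 1 higher, beside 42.6%. The median change was -0.19 in control and -0.21 in paused cells. The list holds genes known to depend on Nodal and was drawn up with earlier results of these data known, so its direction is no independent evidence.

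Among other ligands of the family, of which Gdf1 has no row, 4 of 7 were lower and 1 higher in control cells, beside 21.9% and 19.5% of all genes. In paused cells 5 of 7 were lower, beside 22.0%. With the scaled statistic the 5 calls of each condition became 0. With the minimum on abundance they became 3 in control and 2 in paused cells. Here and in what follows, 2 values for a gene are log2 changes from the authors' deposited tables, control first and paused second. Tgfb2 fell in both (-2.08 and -1.804, SE 0.45 and 0.40), as did Tgfb1 (-0.80 and -0.65, SE 0.15 and 0.13). Tgfb3 had -0.79, not called, in control cells and fell with pausing (-1.23; SE 0.39 and 0.43). Inhba, an activin subunit, fell in both (-3.69 and -3.91), but its means were 4.9 and 5.5 normalized counts with SE of 0.82 and 0.73. Inhbb, another activin subunit, was added after its values were seen because it is far more abundant (means of 1842 and 1112). It rose by 0.56 in control cells (SE 0.22, adjusted p 0.0251) and was not called in paused cells (0.41, adjusted p 0.147).

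The receptors of Nodal that have a row (Acvr1c, another type I receptor, has none) had changes of at most 0.32 in size on the log2 scale. Acvr2b, a type II receptor, fell in both (-0.32 and -0.25, SE 0.04 and 0.05), to 79.9% and 84.1% of wild type. Acvr2a was not called in either (-0.02 in both). Acvr1b, the type I receptor, was not called in control cells (0.05, adjusted p 0.469) and fell by 0.11 with pausing (SE 0.05, adjusted p 0.0413). Cfc1, a co-receptor related to Tdgf1, had a mean level of 17.8 and 24.7 normalized counts and was not called (0.35 and 0.14). Tgfbr2, a receptor for TGF-beta ligands and not for Nodal, fell from low means of 63.7 and 101.8 (to 34.9% and 50.0% of wild type, SE 0.28 and 0.27 on the log2 scale). Tgfbr1, the type I receptor that pairs with it, rose by 0.08 in control cells (SE 0.03, adjusted p 0.0464) and was at 0.00 in paused cells.

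Among the Smads and their partners, Smad4 fell in both conditions (-0.19 and -0.20, SE 0.04 and 0.05). Smad3, the close relative of Smad2, rose by 0.26 in control cells (SE 0.06, adjusted p 1.55e-04) and had -0.21 in paused cells, not called (adjusted p 0.0546). Its change differed between the conditions by -0.48 (SE 0.11, adjusted p 0.00604). Foxh1 fell by 0.20 in control cells (SE 0.07, adjusted p 0.0101) and was not called in paused cells (0.05). The difference of Foxh1 between conditions did not pass (0.24, SE 0.09, adjusted p 0.141).

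Among inhibitors of the signal inside the cell, those that fell did so by less than 0.7. Skil (-0.63 and -0.32, SE 0.07 for each), Ski (-0.36 and -0.68, SE 0.04 and 0.06) and Smad7 (-0.33 and -0.44, SE 0.07 and 0.06) fell in both conditions. Pmepa1 fell in control cells (-0.32, SE 0.11, adjusted p 0.0127) and had -0.23 in paused cells, not called (adjusted p 0.107). In all, 5 of 10 genes (50%) were called in control and 4 (40%) in paused cells, near the 41.4% and 42.6% of all genes. Of the 10, 4 were lower in each condition, beside 21.9% and 22.0% of all genes. Outside the cell, Fst, which binds activin, fell in both (-1.99 and -1.42, SE 0.29 and 0.34), whereas the related Fstl3 rose (0.66 and 1.19, SE 0.18 and 0.21) at means of 59.5 and 63.9 normalized counts. Fstl1 fell in both (-0.58 and -0.69, SE 0.07 and 0.09), and the other 4 genes of the list were not called. In each condition 42.9% of this list were called, near the share of all genes.

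None of the other convertases listed was called higher, as Pcsk6 was. Pcsk2 and Pcsk4 were lower in both conditions, and Pcsk1, Pcsk5, Pcsk7 and Mbtps1 were not called in either. In each condition 42.9% of the list were lower, beside 21.9% of all genes in control and 22.0% in paused cells. Pcsk7, the nearest to Furin by mean count, with 768.9 normalized counts in control cells, had -0.06 and -0.09 (SE 0.08 and 0.04). Pcsk4 fell in both (-0.48 and -0.36, SE 0.15 and 0.12) from means of 101.6 and 125.5. Of the Nodal modulator complex, a set of endoplasmic reticulum proteins, Nomo1 (-0.09 and -0.20, SE 0.04 and 0.03) and Tmem147 (-0.17 and -0.21, SE 0.07 and 0.05) fell in both. The control calls (adjusted p 0.0395 and 0.0357) were lost at an adjusted p under 0.01 and with equal summed counts. In each condition the 2 calls became 0 with a 2-fold threshold, against 1.2-fold and with the scaled statistic.

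**Figure D5:**
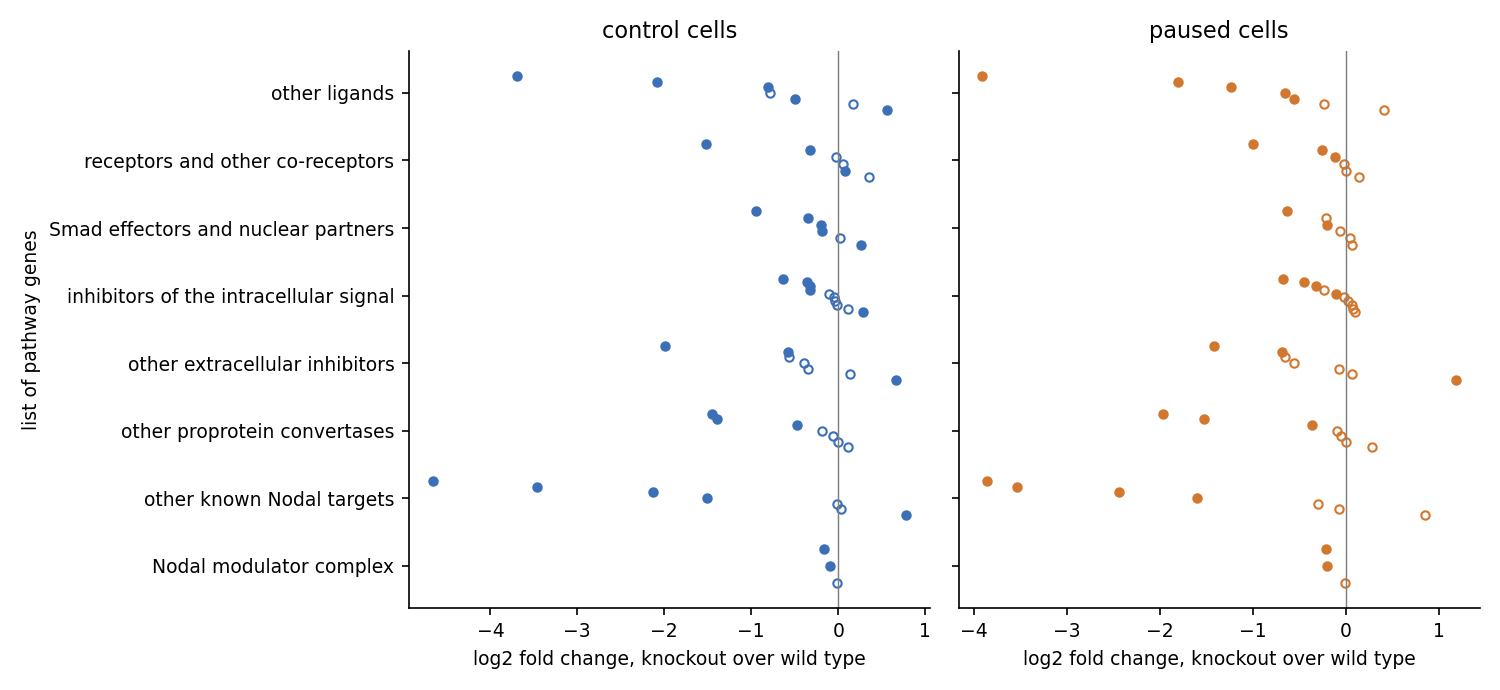
Log2 fold change of knockout over wild type (horizontal axis) of each other pathway gene, by role (rows), in control (left) and paused (right) cells; filled points have an adjusted p under 0.05. Receptors and intracellular inhibitors lie mostly within 0.7 of 0, and 4 Nodal targets lie below -1.5 in both conditions.

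Of 7 other known Nodal targets, 4 were lower in each condition, beside 21.9% and 22.0% of all genes. Among them were T or brachyury (-4.66 and -3.86, SE 0.48 and 0.43), Fgf8 (-2.13 and -2.44, SE 0.35 and 0.40, means of 32.8 and 21.0 normalized counts) and Mixl1 (-1.51 and -1.602, SE 0.37 and 0.41, means of 37.9 and 30.2). With the minimum on abundance, 1 gene of the list was called in each condition, and with the scaled statistic 2 in control and 1 in paused cells. As deposited, another was higher in control cells and the remaining genes of the list were not called.

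Last, genes whose pair of changes lay nearest to that of Nodal or Lefty1 were found among 10443 abundant genes with an SE under 0.3 in both tables, by the Euclidean distance over the 2 log2 changes. Nearest to Lefty1 was Lefty2, at 0.43, followed by Nes, an intermediate filament of neural progenitors, at 1.155 and Frmd4b at 1.48. Nes fell in both (-1.74 and -2.48, SE 0.16 and 0.30). No gene lay within 0.1 of Lefty1. For Nodal the nearest were Tm2d2, Slc25a26 and Ank3, at 0.0043 to 0.0082, but 906 genes lay within 0.1 of it, so this likeness picks out a change near 0 and little else.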

How the data were processed

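Titles gave each library's genotype and condition. Per the file headers, the 2 deposited tables have the columns of DESeq2 results; the submitters' processing notes name FastQC, Trim Galore, HISAT2, featureCounts and DESeq2 on mm10, without versions. The mean normalized count (a signal) was averaged by the authors over libraries that are not named. The deposited change and its SE are log2 values; the deposited statistic is a score, their quotient (to 1.21e-06). In each condition the p-value and its adjustment over all genes are those the authors deposited; those of the difference and of the alternatives were computed here. The kit keeps strand, per the labels' protocols; annotation and the strand setting of the counting are not given in the sources used here. Depth per library is unknown, so the SE is the only precision.

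No count test could be run, so the authors' tests are reported unchanged. The difference between conditions is the paused minus the control change over the root of summed squared SE, with a two-sided normal p adjusted over 19132 genes. Intervals are 95% and normal. Alternatives were an adjusted p under 0.01, a 2-fold change, a test against 1.2-fold, a statistic scaled to its middle spread, equal summed counts (with 4 wild-type and 8 knockout libraries) and a minimum of 5 ppm of summed counts. Lengths came from GENCODE M21 (87.6% of control and 87.0% of paused symbols). The rule for names took all 8 genes, at most 4 called genes per list, the receptors, Smads and convertases, and the 3 nearest in change; genes beside the Lefty pair, Inhbb and the genes under other observations were added later. Some items are not reported here. Members and lists were chosen with earlier results of these data known. Python 3.11.15, numpy 2.4.6, scipy 1.17.1 and pandas 2.3.3 were used.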

Additional observations from a re-analysis of the deposited data

Results flagged for a closer look

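The effect of Smad2 loss differed between paused and control cells for 3 of 53 other pathway genes (5.66%), by the test of the difference over all genes. Of all genes, 1.44% were called in that test. Ski, a corepressor of Smads, had a difference of -0.32 (SE 0.07, adjusted p 0.00298), with -0.36 without and -0.68 with INK128 (the authors' deposited tables). Smad3 had -0.48 (SE 0.11, adjusted p 0.00604). Eomes, a T-box factor of mesendoderm and a Nodal target, had 0.89 (SE 0.25, adjusted p 0.0325), from -0.94 without and -0.06 with INK128 (the authors' deposited tables). None of the 3 passed the test beyond 1.2-fold, and none passed once the statistic was scaled.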

How the results depend on the processing

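Over 126 alternative values of single genes, 117 kept their side of the threshold, 8 lost a call and 1 gained one; the direction was no test, since 5 of the 6 alternatives keep the change itself. Lefty1 and Lefty2 stayed called in both conditions under each alternative run. Pcsk6 lost its calls under the 2-fold threshold alone. The 5 of 7 genes called in paused cells became 2 with a 2-fold threshold, 3 against 1.2-fold and 3 with the scaled statistic (Nodal adjusted p 0.843, Tdgf1 0.766). The 0 called for the difference became 1, Lefty1, with the minimum on abundance and stayed 0 under the other alternatives. Of the other pathway genes, the 31 called in control cells became 10 with a 2-fold threshold, 14 against 1.2-fold, 2 with the scaled statistic and 19 with the minimum on abundance. The 26 called in paused cells became 11, 16, 3 and 15 in the same order, and the 3 called for the difference became 0 under each of the first 3. The minimum on abundance tests fewer genes. The deposited statistic had a middle spread of 2.77 in control and 2.80 in paused cells, where 1 is that of unchanged genes; the cause was not tested. For equal summed counts an offset of -0.06 in control and -0.04 in paused cells was taken off each change, which raised it (Nodal from 0.03 to 0.08 in control cells). No paired analysis was possible because the tables hold no single libraries; for the same reason leaving out a replicate and other count tests were not run.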

Other observations

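Markers of other cell types were listed to place the cells. Values are log2 changes from the authors' deposited tables, control first, for genes named after their values were seen. The fibroblast markers that fell include Col1a1, a fibrillar collagen (-2.79 and -3.53, SE 0.40 and 0.47). Trophoblast markers went both ways: Hand1 rose (1.95 and 2.69, SE 0.18 and 0.26), while Cdx2 fell (-0.84 and -0.92, SE 0.22 and 0.35). Among 4 neuroectoderm markers Sox1 rose and Pax6 and Nes fell in both conditions. Of all genes, 21.9% were called lower and 19.5% higher in control cells, and 22.0% lower and 20.5% higher in paused cells. Of the 8 stem cell markers, Nanog and Klf4 were higher in both conditions and Utf1 lower, with Pou5f1 lower in control cells. In all, 50% of them were called in control and 37.5% in paused cells, near the 41.4% and 42.6% of all genes.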
